A study of Homo sapiens with 30 samples.

Results

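Transcripts of 41 DNA damage response and repair genes were followed through sorting for integrin β4 and migration through narrow pores in A375 cells, an established human melanoma line. The 41 genes were taken by symbol from the count tables, which listed 26364 genes. All 41 were among the 15381 genes with enough counts to be tested, and the lowest count of any of them in any library was 46. The 30 libraries, made from polyA RNA, form 10 groups with 3 libraries per group. All cells were A375, sorted by antibody staining for the surface protein ITGB4 into negative and positive cells. Parental negative and Parental positive cells were the controls, for which the labels give no round. In each round cells were put on a fibronectin-coated transwell filter with 5 µm pores, and cells were collected from the top (not crossed) or the bottom (crossed). Top 10 negative and Top 10 positive cells stayed above the filter in 10 rounds, and Bottom 10 negative and Bottom 10 positive cells passed it in 10 rounds. Bottom 5 negative cells passed it in 5 rounds, and Top 5 positive cells stayed above it in 5. Presorted negative Bottom 4 and Presorted positive Bottom 5 cells were sorted first and then crossed 4 and 5 times. The rounds are those of the sample labels, whereas the design text gives 5 rounds only. That text also names Clone3, a single-cell-derived population that is not analysed here, and the labels give Parental as the population of these samples. Whether numbered replicates were grown apart is not said in the labels. A p-value here reflects the spread of the sequenced libraries, which may be technical.

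Cells answer broken DNA through sensor and mediator proteins that mark the break, through the kinases ATM, ATR and DNA-PK that signal from it, and through repair pathways that close it. Homologous recombination copies the sister chromatid and therefore serves cells in S and G2 phase, whereas end joining seals broken ends throughout the cell cycle. Single-strand break repair, mismatch repair and the Fanconi pathway, which removes crosslinks between strands, handle other lesions. Passage through pores smaller than the nucleus is known to deform it and can rupture its envelope, which is why repair genes are of interest in this design. Many recombination and Fanconi genes are transcribed with the DNA replication genes, so their transcripts follow how many cells are in S phase.

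Depth was 14258919 to 29134945 counts assigned to genes per library. The melanocyte lineage factor SOX10 was at 287 to 1460 CPM (read counts scaled to library size with TMM factors), but the melanosome gene PMEL and the tyrosinase gene TYR, which define pigmented melanocytes, were low, with PMEL at no more than 1.68 CPM and TYR at 0 in 28 of 30 libraries. The pigment gene DCT reached 14 CPM, with a median of 0.854. The lineage gene MITF was at 23.2 to 66.3 CPM. The immune marker CD3E was at 0 in all 30 libraries. Of the keratinocyte markers KRT14 was at 0.227 to 39.9 CPM, with a median of 11.8. KRT5 and KRT1 reached no more than 0.811 and 0.116 CPM. ITGB4 transcript was at 27.8 ± 5.13 CPM (SD, n = 3) in Parental negative and 100.1 ± 66.6 CPM in Parental positive cells. The positive sort also had the higher mean in Top 10 cells (28.9 ± 24.45 against 7.37 ± 5.17 CPM) and Bottom 10 cells (130 ± 113 against 49.0 ± 33.9 CPM). The same held in presorted cells, at 194 ± 149 CPM in Presorted positive Bottom 5 against 135 ± 162 CPM in Presorted negative Bottom 4. Between crossed and uncrossed groups the level did not follow the label. Bottom 5 negative cells had 86.3 ± 61.2 CPM, whereas Top 5 positive cells had 28.15 ± 14.9 CPM. Negative and positive below are therefore the labels of the sort. A set of 6 libraries stood apart from the other 24 on the second principal component, which held 21.2% of the variance. They were Top 10 negative replicate 1, Bottom 10 positive replicate 3, Presorted negative Bottom 4 replicate 2, Bottom 5 negative replicate 2 and Top 5 positive replicates 1 and 3. In them the level of a gene relative to its mean over all libraries was the lower the longer its exons were, with Spearman correlations over 14939 genes of -0.442 to -0.327, against -0.026 to 0.388 in the other 24. Reads that matched more than 1 place were 9.16 to 13.3% in these 6 libraries and 7.80 to 9.21% in the others.

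The 41 genes spanned a wide range of levels (the heat map of all 41 genes by library shows each against its own mean). Per kilobase of exon, the end joining genes held both the highest levels and some of the lowest. XRCC6 and XRCC5, which encode the Ku heterodimer that caps broken ends, had medians over the 30 libraries of 163 and 123 CPM per kb. PARP1, the sensor of strand breaks, followed at 114 CPM per kb, and PRKDC, the catalytic subunit of DNA-PK that binds Ku, at 57.6. XRCC4, the cofactor of the end joining ligase, had 7.16 CPM per kb, and POLQ, the polymerase of microhomology-mediated end joining, had 3.12. Among recombination genes the single-strand binding subunits RPA1 (44.2 CPM per kb) and RPA3 (17.8) were highest, and BARD1, the partner of BRCA1, was lowest at 2.32. FANCM, a translocase of the Fanconi pathway, had the lowest level of the 41 at 1.69 CPM per kb. The signalling kinases ATR and ATM had 5.65 and 3.27 CPM per kb, ATRIP, the partner that brings ATR to single-stranded DNA, had 5.82, and the effector kinase CHEK1 had 13.5.

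**Figure D1:**
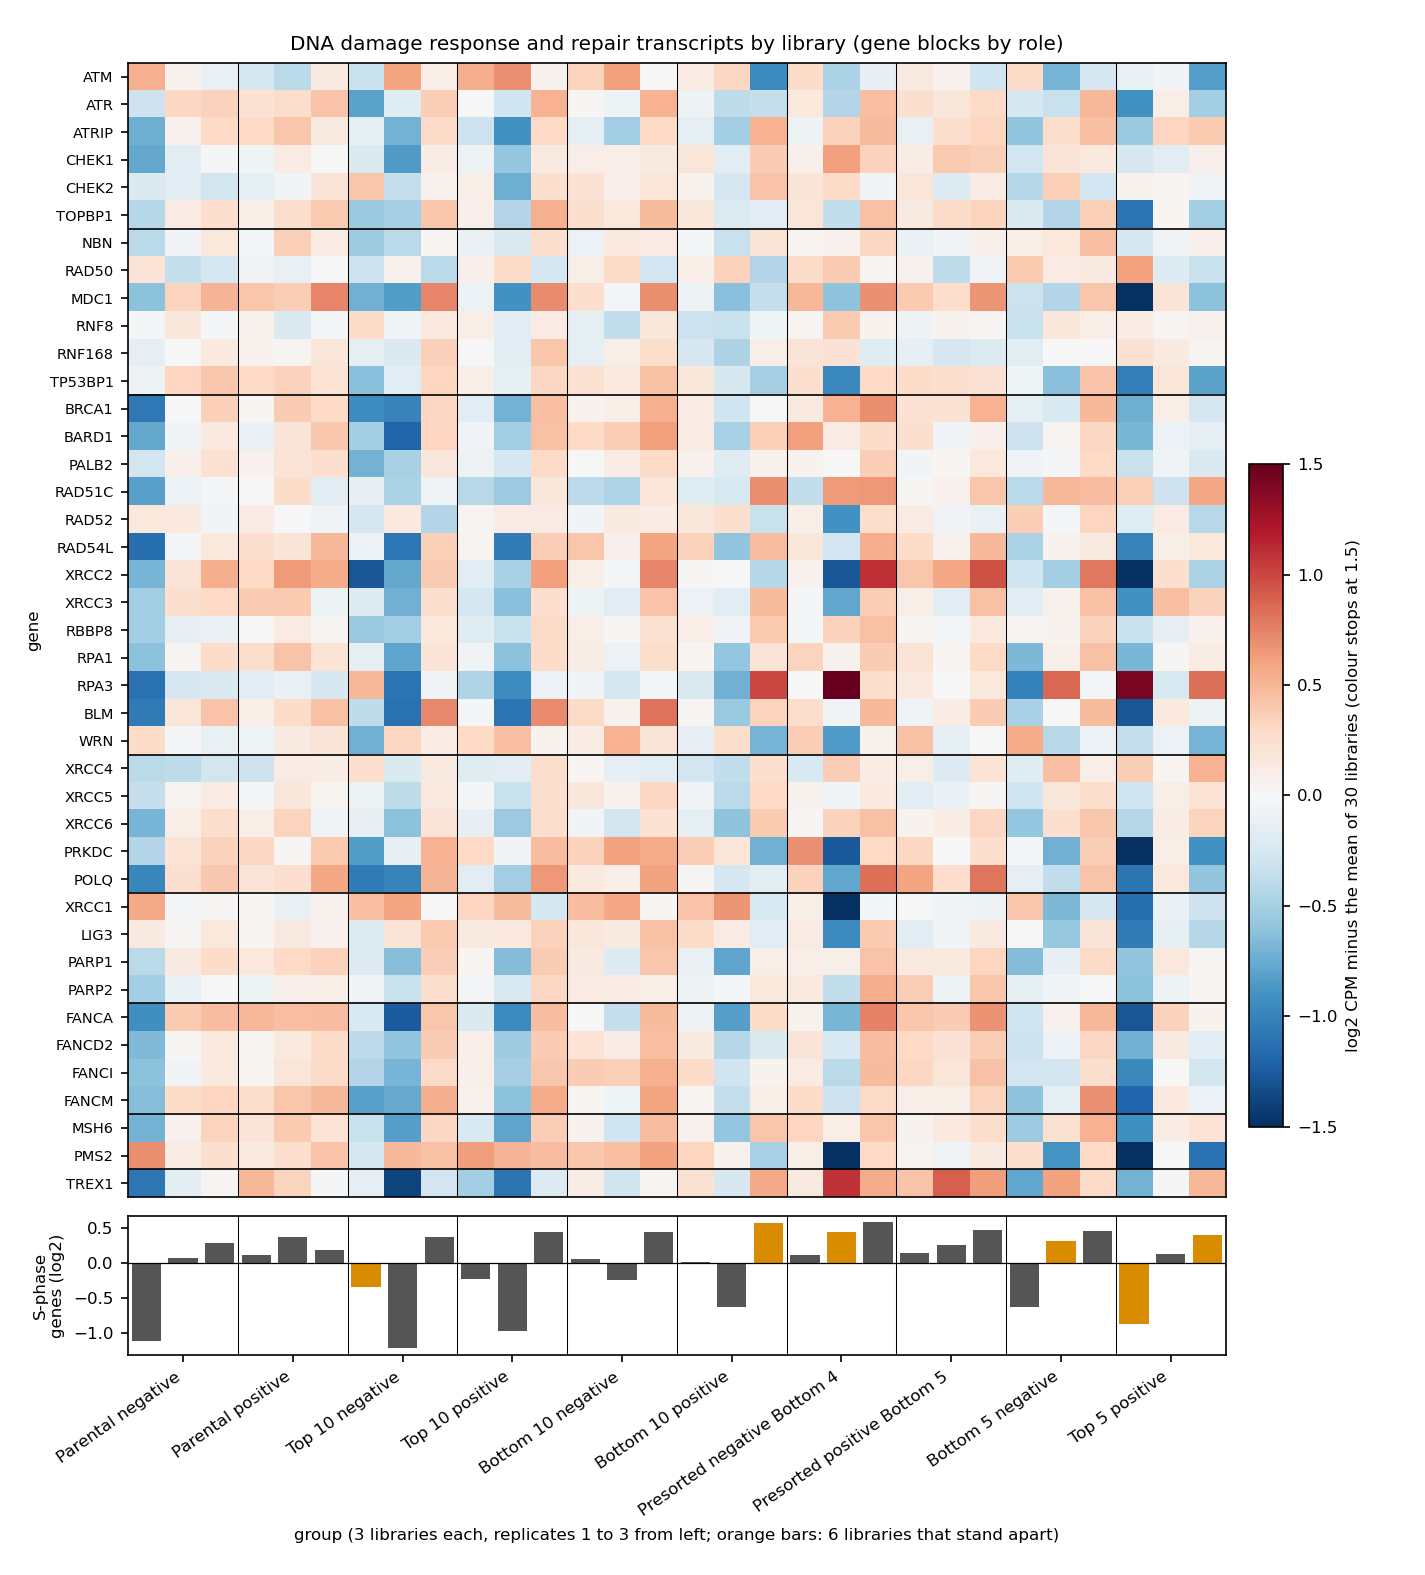
Level of each of the 41 genes (rows, in blocks by role) in each of the 30 libraries (columns, 3 per group, replicates 1 to 3 from left), as log2 CPM minus the mean of the 30 libraries, with the colour scale ending at 1.5 either way; the bars below give the mean of 42 S-phase genes on the same scale, in orange for the 6 libraries that stand apart. Most rows are low together in Parental negative replicate 1, Top 10 negative replicate 2 and Top 10 positive replicate 2, where the S-phase bars are at -1.12, -1.22 and -0.97.

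Some of these counts carry an identity problem that the files do not resolve, because the strand setting and gene models of the counting are not given in the sources used here. In the GENCODE annotation all exon bases of TREX1 lie within exons of ATRIP on the same strand, and 90.6% of those of RAD50 lie within a second gene model on the same strand. On the opposite strand, 45.3% of XRCC3 exon bases overlap KLC1, 43.8% of LIG3 overlap RFFL, 28.9% of TP53BP1 overlap TUBGCP4, 22.4% of FANCA overlap ZNF276, 21.0% of MSH6 overlap FBXO11 and 566 of 3146 exon bases of RAD54L overlap LRRC41. Among the listed genes 8 have pseudogene-like names built on PMS2, 1 on CHEK2 and 1 on XRCC6, and their sequences were not compared. The levels of the repair genes named here are uncertain to that extent.

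Without the pairing of replicate numbers none of the 41 genes passed the test in any comparison of groups. With it 6 of the 41 passed between crossed and uncrossed cells over both sorts, beside 14.9% of all genes. Among negative cells 3 passed, beside 9.29% of all genes, and among positive cells 1 passed, beside 7.75%. In the unpaired fit, the edgeR quasi-likelihood test with Benjamini-Hochberg adjustment over all 15381 genes called 0 of 41 in each of 18 tests, and DESeq2 also called 0 of 41 in each. The comparisons that the design centres on set cells that crossed against cells that did not, after the same 10 rounds. Averaged over both sorts, the edgeR test called 0 of 41 repair genes, beside 3.97% of all genes tested. DESeq2 called 0 of 41 there beside 6.25% of all genes, and 0 in the negative and positive sorts beside 2.56% and 1.85%. At an unadjusted p below 0.05 there were 4 of the 41, beside 12.8% of all genes. With the replicate block there were 10. The share of all genes at that cutoff with the block is not given here, and the 12.8% belongs to the unpaired fit. After adjustment 14.9% of all genes passed with the block, so the 10 cannot be read as a result about repair genes. The median log2 fold change of the 41 genes, crossed over uncrossed, was 0.13, with 33 of 41 above 0. Over all genes the median was 0.01, with 52.7% above 0. For 38 of 41 genes the 95% interval excluded a 2-fold change in either direction. Of 42 S-phase genes 41 lay above 0 and 0 were called, with a median log2 fold change of 0.32. The part of cell cycle in the repair gene values was not tested.

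The smallest p-value in this comparison belonged to TREX1, the exonuclease that degrades DNA exposed to the cytosol. TREX1 was at 17.95, 7.62 and 16.3 CPM in Top 10 negative replicates 1 to 3 and at 14.01, 9.32 and 17.3 CPM in Top 10 positive cells. It was at 21.5, 16.15 and 20.5 CPM in Bottom 10 negative and at 23.3, 16.9 and 29.49 CPM in Bottom 10 positive cells. Every crossed library was above the uncrossed library of the same sort and replicate number, but the groups overlapped. The log2 fold change was 0.63 ± 0.26 (SE), or 1.54-fold, with an edgeR adjusted p of 0.263. ATRIP, whose exons contain those of TREX1, had a log2 difference of 0.15 ± 0.25 (edgeR adjusted p = 1).

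RBBP8 (CtIP), which starts the resection of broken ends, was at 31.5, 32.2 and 51.7 CPM in Top 10 negative and 40.9, 36.8 and 56.5 CPM in Top 10 positive cells. In Bottom 10 negative cells it was at 49.6, 46.7 and 54.2 CPM and in Bottom 10 positive cells at 49.3, 44.5 and 60.4 CPM. Replicate 3 was the highest in all 4 groups. The log2 fold change was 0.29 ± 0.14, with an edgeR adjusted p of 0.376.

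CHEK1, the kinase that ATR activates to hold replication and mitosis, was at 53.4, 34.3 and 67.2 CPM in Top 10 negative and 58.8, 41.6 and 68.0 CPM in Top 10 positive cells. It was at 66.6, 66.3 and 68.3 CPM in Bottom 10 negative and 70.5, 55.4 and 80.5 CPM in Bottom 10 positive cells. The lowest values were replicate 2 of both Top 10 groups. The log2 fold change was 0.34 ± 0.16, with an edgeR adjusted p of 0.381.

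In the 4 groups of 10 rounds, libraries that carried the same replicate number deviated together from their group means in most pairs of groups. The exception was Top 10 negative with Bottom 10 positive cells, where replicate 1 gave a correlation of -0.122. The plot of values by replicate number shows 8 genes. For the pairs of groups compared, the correlation of these deviations ran from 0.406 to 0.692 in the negative sort and from 0.265 to 0.573 in the positive sort. With the replicate number as a block in a fit of these 4 groups, 6 repair genes passed for both sorts averaged and all 6 were higher in crossed cells. Among all genes 14.9% passed in that fit, with 7.67% of all genes higher. The 6 genes were TREX1 (1.58-fold, edgeR adjusted p = 0.0048), RAD54L, a motor protein that drives strand exchange (1.38-fold, adjusted p = 0.032), RBBP8 (1.24-fold, adjusted p = 0.037), MSH6, the mismatch recognition subunit (1.20-fold, adjusted p = 0.0439), XRCC3, a recombination gene (1.22-fold, adjusted p = 0.0466), and CHEK1 (1.29-fold, adjusted p = 0.0494). They were the 6 genes that were higher in the crossed library of all 6 numbered pairs, as were 9.13% of all genes. In the same fit 14 of 42 S-phase genes rose.

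**Figure D2:**
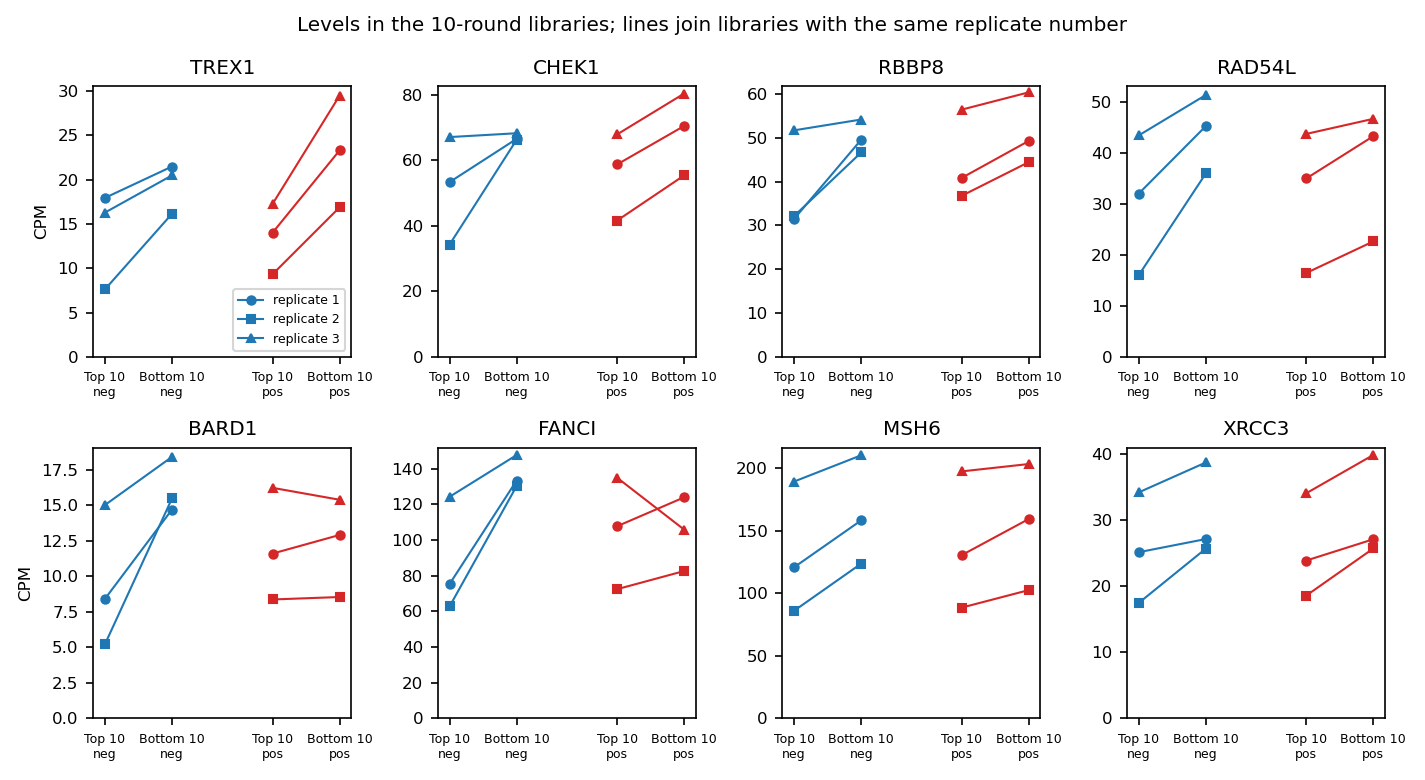
CPM (vertical axis, from 0) of 8 repair genes in the 12 libraries of 10 rounds, ITGB4-negative in blue and ITGB4-positive in red, each point 1 library and each line joining libraries with the same replicate number. TREX1, CHEK1, RBBP8, RAD54L, MSH6 and XRCC3 are higher in the crossed library on all 6 lines, whereas the positive sort lines of BARD1 and FANCI do not share a direction.

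RAD54L was at 32.1, 16.1 and 43.5 CPM in Top 10 negative and 45.4, 36.0 and 51.5 CPM in Bottom 10 negative cells. It was at 35.1, 16.5 and 43.8 CPM in Top 10 positive and 43.4, 22.7 and 46.8 CPM in Bottom 10 positive cells. In each group replicate 2 was lowest and replicate 3 highest. MSH6 followed the same order, at 121, 86.1 and 189.5 CPM in Top 10 negative and 158, 124 and 210.5 CPM in Bottom 10 negative cells, and at 131, 88.6 and 198 CPM in Top 10 positive and 159.5, 103 and 203.5 CPM in Bottom 10 positive cells.

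These calls depended on which replicate numbers entered. Without replicate 2 the paired fit called 0 of 41 genes in each sort and in both averaged, where it still called 502 of 14574 genes for the average, or 3.44%, and 0.796% and 0.631% of all genes in the negative and positive sorts. TREX1 then had a log2 difference of 0.52 ± 0.13 (edgeR adjusted p = 0.12). Without replicate 1 the fit called TREX1 alone for the average (1.69-fold, edgeR adjusted p = 0.0159), beside 9.60% of all genes. Without replicate 3 it called 14 of 41, all higher in crossed cells, TREX1 among them, beside 16.6% of all genes. Without the 2 libraries of these groups that stand apart it called 11, of which 10 were higher and ATM was lower, beside 26.5% of all genes. The labels do not say what a replicate number marks.

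In the negative sort taken alone, BARD1, XRCC2, BRCA1 and FANCI had the highest log2 fold changes, from 0.65 to 0.76, followed by the end joining genes POLQ (0.62) and PRKDC (0.55), and none passed without the block. The edgeR test called 0 of 41 genes, beside 1.33% of all genes. At an unadjusted p below 0.05 there were 3, beside 9.04% of all genes. With the replicate block there were 21. The share of all genes at that cutoff with the block is not given here, and the 9.04% belongs to the unpaired fit. After adjustment 9.29% of all genes passed with the block, so the 21 cannot be read as a result about repair genes. The median log2 fold change of the 41 genes was 0.30 with 38 above 0, beside a median of -0.01 over all genes and of 0.39 over the S-phase genes. By role, all 6 checkpoint genes, 12 of 13 recombination genes, 4 of 5 end joining genes and all 4 Fanconi genes lay above 0, with medians of 0.235, 0.38, 0.27 and 0.41 on the log2 scale, which were not tested against each other. Only 24 of the 41 intervals excluded a 2-fold change.

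BARD1, which forms a ubiquitin ligase with BRCA1, was at 8.41, 5.22 and 15.02 CPM in Top 10 negative and 14.7, 15.5 and 18.4 CPM in Bottom 10 negative cells. Its log2 fold change was 0.76 ± 0.32 (edgeR adjusted p = 0.392). FANCI, the partner that is ubiquitylated with FANCD2, was at 75.3, 62.7 and 124 CPM in Top 10 negative and 133, 130.2 and 148 CPM in Bottom 10 negative cells. FANCI was the only one of the 41 genes whose crossed libraries all lay above all uncrossed ones in this sort, as did 8.68% of all genes. Its log2 fold change was 0.65 ± 0.28 (edgeR adjusted p = 0.44). PALB2, which bridges BRCA1 and BRCA2, was at 14.5, 17.02 and 26.7 CPM in Top 10 negative and 23.8, 25.6 and 29.2 CPM in Bottom 10 negative cells. The difference was 0.43 ± 0.20 on the log2 scale, with an edgeR adjusted p of 0.485. With the replicate block BARD1 (1.84-fold, edgeR adjusted p = 0.0264), FANCI (1.63-fold, adjusted p = 0.0426) and RAD54L (1.56-fold, adjusted p = 0.0473) passed, beside 9.29% of all genes (4.70% higher). Leaving out replicate 1 or replicate 2 ended these calls, when 3.51% and 0.796% of all genes passed. Leaving out replicate 3 gave 16 of 41, beside 13.1% of all genes, and leaving out the libraries that stand apart gave 10, beside 18.2%.

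In the positive sort the 41 genes had no common direction. The edgeR test called 0 of 41, beside 0.943% of all genes. At an unadjusted p below 0.05 there was 1, beside 9% of all genes. With the replicate block there were 7. The share of all genes at that cutoff with the block is not given here, and the 9% belongs to the unpaired fit. After adjustment 7.75% of all genes passed with the block, so the 7 cannot be read as a result about repair genes. The median log2 fold change was -0.02 with 15 above 0. It was 0.03 over all genes and 0.24 over the S-phase genes. None of the 6 break recognition genes and none of the 4 Fanconi genes lay above 0. Between the groups only PMS2, the mismatch repair endonuclease subunit, did not overlap, with 22.8, 18.95 and 13.1 CPM in crossed against 28.15, 26.1 and 25.2 CPM in uncrossed cells, and 7.58% of all genes were likewise lower in each crossed library. TREX1 again had the smallest p, with a log2 fold change of 0.78 ± 0.38, or 1.71-fold (edgeR adjusted p = 0.553). It was the only gene of the 41 that passed with the replicate block (1.73-fold, edgeR adjusted p = 0.022, beside 7.75% of all genes, 3.93% higher), and it did not pass when any 1 replicate number was left out, when 4.39%, 0.631% and 5.71% of all genes passed without replicates 1, 2 and 3.

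ATM, the kinase that responds to double-strand breaks, was at 84.1, 92.1 and 60.0 CPM in Top 10 positive and 62.3, 71.4 and 29.7 CPM in Bottom 10 positive cells. The last value, in a library that stands apart, was the lowest of ATM in all 30. The log2 fold change was -0.53 ± 0.32 (edgeR adjusted p = 0.714), and -0.25 without the libraries that stand apart. RNF8, the ubiquitin ligase that marks chromatin at breaks, was at 18.99, 15.9 and 19.4 CPM in Top 10 positive and 14.3, 14.15 and 17.03 CPM in Bottom 10 positive cells. Its log2 fold change was -0.26 ± 0.17, with an edgeR adjusted p of 0.755. In the paired fit without the 2 libraries that stand apart, ATM passed as lower, at a log2 difference of -0.37 (edgeR adjusted p = 0.00725), beside TREX1 as higher and 16.4% of all genes.

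**Figure D3:**
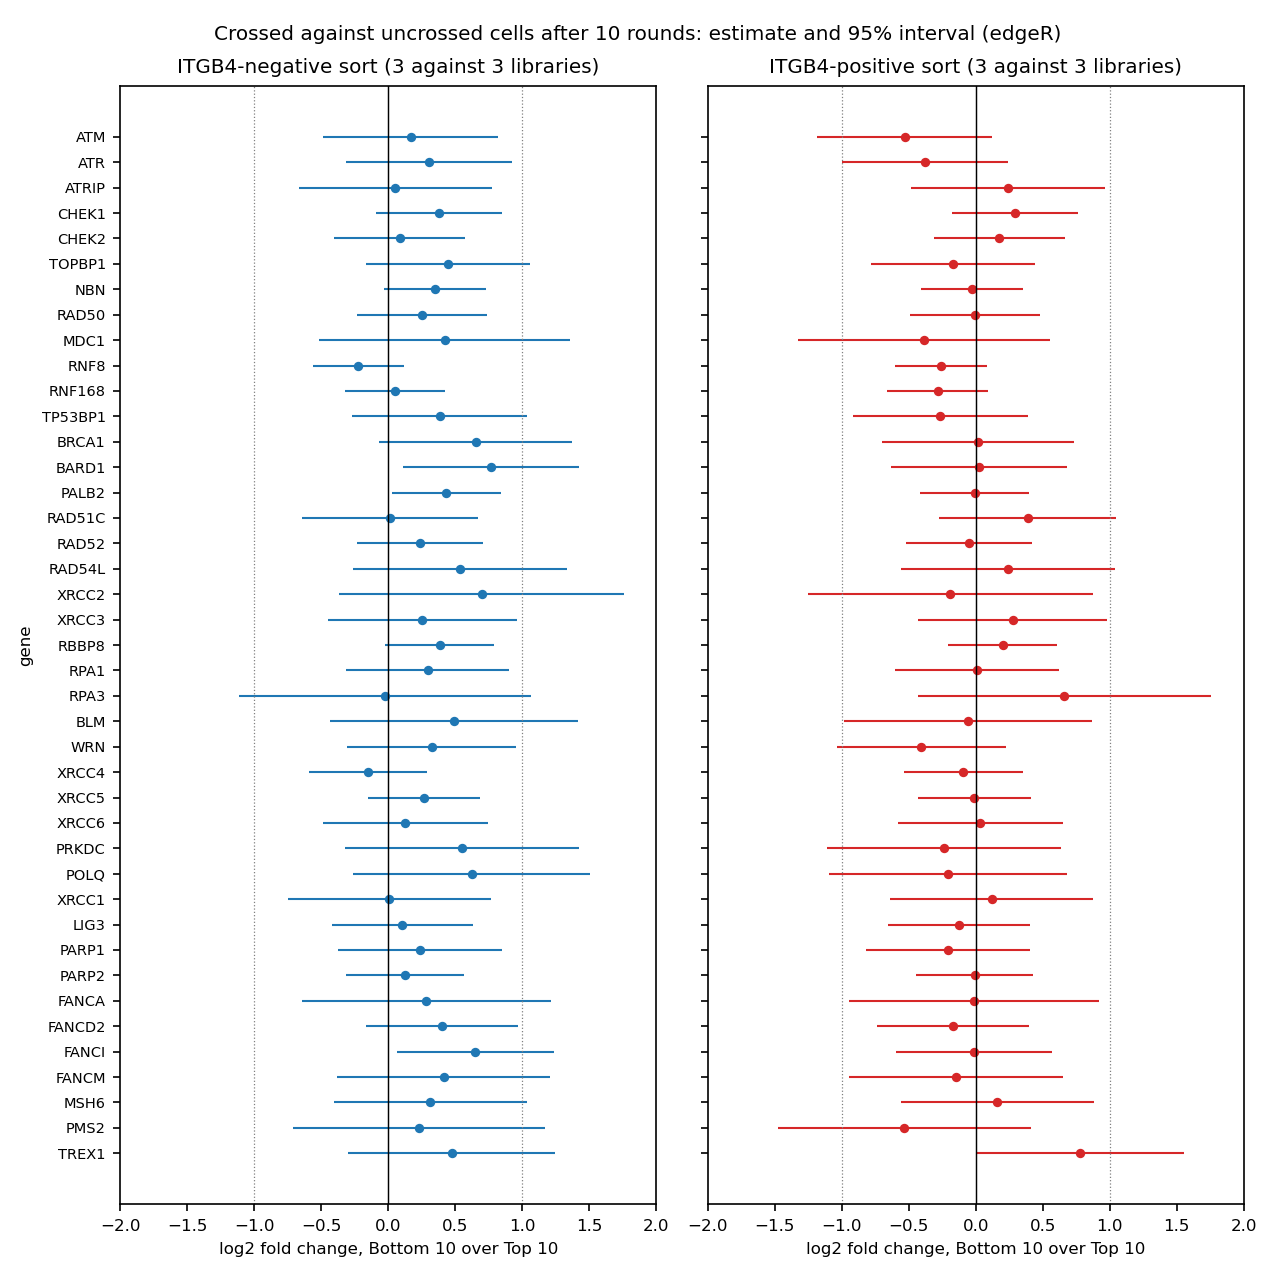
Log2 fold change of each of the 41 genes between crossed (Bottom 10) and uncrossed (Top 10) cells after 10 rounds (horizontal axis) with its 95% interval from edgeR, in the negative sort (left) and the positive sort (right), 3 against 3 libraries each; dotted lines mark 2-fold. In the negative sort 38 points lie to the right of 0, in the positive sort 15, and no gene passed the test in either.

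The difference between the sorts was itself tested. No gene of the 41, and 0% of all genes, had a difference in the crossing effect between positive and negative cells that passed (edgeR, with 0 of the 41 and 441 of all genes at an unadjusted p below 0.05). DESeq2 and the replicate block called 0 of either. The block had 6 of the 41 at an unadjusted p below 0.05. The share of all genes at that cutoff with the block is not given here, so the 6 cannot be read as a result about repair genes. The median over the 41 with the block was -0.36. The median difference of the 41 genes, positive minus negative, was -0.30 on the log2 scale with 33 below 0, and for the S-phase genes it was -0.13. Only 13 of the 41 intervals of this difference excluded 2-fold, so differences between the sorts of up to 2-fold were not resolved for the other genes.

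Against parental cells, the repair transcripts of cells that had crossed 10 times lay on different sides of 0 in the 2 sorts. Above 0 were 37 of 41 in negative cells, and below 0 were 31 of 41 in positive cells. Over all genes 50.5% and 55.7% lay above 0. Of 42 S-phase genes 38 lay above 0 in negative and 10 in positive cells, with medians of 0.24 and -0.11. Parental negative replicate 1, a control library, had an S-phase mean of -1.12. The difference between the sorts was not tested here. Averaged over both sorts, edgeR called 0 of 41, beside 1.27% of all genes. At an unadjusted p below 0.05 there were 0, beside 12.8% of all genes. The median log2 fold change was 0.01, and 40 of 41 intervals excluded 2-fold. The 3 genes with the smallest p were RBBP8 (0.23 ± 0.14), CHEK1 (0.26 ± 0.16) and CHEK2, a kinase that ATM activates (0.23 ± 0.17), with edgeR adjusted p of 0.523, 0.526 and 0.611. RBBP8 was at 32.3, 42.6 and 43.2 CPM in Parental negative and 46.3, 50.2 and 46.6 CPM in Parental positive cells. CHEK1 was at 36.5, 54.9 and 61.0 CPM in Parental negative and 59.5, 67.5 and 62.4 CPM in Parental positive cells. Parental negative replicate 1 was the lowest of the 6 parental libraries for both genes. The 2 sorts taken alone had 0 called, beside 0.325% of all genes for ITGB4-negative and 0.247% for ITGB4-positive cells. For 29 and 27 of the 41 genes the interval excluded 2-fold. Their medians were 0.16 and -0.20, with 7 genes wholly above the parental libraries in the negative sort (9.03% of all genes) and 8 wholly below in the positive sort (9.08% of all genes).

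Cells that had failed to cross 10 times were compared with the same parental libraries, so the crossed and uncrossed values share their controls. Averaged over both sorts, edgeR called 0 of 41, beside 1.79% of all genes. At an unadjusted p below 0.05 there were 0, beside 13.4% of all genes. The median log2 fold change was -0.14 with 29 of 41 below 0, and -0.25 for the S-phase genes. TREX1, at 9.35, 17.7 and 20.4 CPM in Parental negative and 28.0, 25.05 and 19.6 CPM in Parental positive cells, had a log2 difference of -0.51 ± 0.26 (edgeR adjusted p = 0.414). All 3 Top 10 positive libraries lay below all Parental positive ones for TREX1, where the log2 fold change was -0.84 ± 0.37 (edgeR adjusted p = 0.494, with 0 of 41 called beside 0.384% of all genes), and it was the only gene of the 41 to do so, as did 8.64% of all genes. LIG3 and PMS2 lay wholly above, as did 8.60%. PALB2 followed at -0.25 ± 0.14 and NBN, a subunit of the break-sensing MRE11 complex, at -0.19 ± 0.13 (edgeR adjusted p = 0.461 and 0.569). In the negative sort 0 of 41 were called, beside 0.0455% of all genes.

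No repair gene passed the test between the sorts by ITGB4. Averaged over parental, Top 10 and Bottom 10 cells, edgeR called 0 of 41 genes, beside 0.364% of all genes. At an unadjusted p below 0.05 there were 0, beside 5.21% of all genes. All 41 intervals excluded a 2-fold difference. The log2 differences, positive minus negative, ran from -0.16 (ATM) to 0.28 (TREX1). RBBP8 had the smallest p, at 0.18 ± 0.11, followed by NBN at 0.14 ± 0.11 and TREX1 at 0.28 ± 0.22 (edgeR adjusted p = 1 for each). Within parental cells alone the median was 0.25 with 35 of 41 above 0 and 0 called, beside 0.0585% of all genes. Only 26 of the 41 intervals excluded 2-fold in parental cells. There the S-phase genes had a median of 0.37, and 1 library, Parental negative replicate 1, held the lowest S-phase mean of its group at -1.12. Within Top 10 and within Bottom 10 cells 0 of 41 were called, beside 0.0130% and 0% of all genes, with medians of 0.12 and -0.21. In these 31 and 23 of the 41 intervals excluded 2-fold. In Bottom 10 cells 5 of the 41 genes lay wholly lower in the positive sort, as did 5.84% of all genes. With the replicate block 0 of 41 were called in Top 10 and in Bottom 10 cells, beside 0.240% and 0.830% of all genes.

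The 4 groups with fewer rounds contain 4 of the 6 libraries that stand apart. Presorted negative Bottom 4 cells were compared with Parental negative cells. EdgeR called 0 of 41 genes, beside 2.00% of all genes, with 5 at an unadjusted p below 0.05 (19.5% of all genes were). The 41 genes had a median log2 fold change of 0.22, and 6 of them lay wholly above the parental libraries, as did 9.45% of all genes. The S-phase genes had a median of 0.55, with 42 of 42 above 0. RPA3, a subunit of the single-strand binding complex, was at 39.9, 174 and 47.9 CPM against 18.4, 33.65 and 34.4 CPM in parental cells. The log2 fold change was 1.60 ± 0.54 (edgeR adjusted p = 0.124), and it was 0.59 ± 0.33 without the libraries that stand apart, of which the library at 174 CPM is one. CHEK1, at 65.4, 94.7 and 78.8 CPM, had a log2 difference of 0.65 ± 0.23 (edgeR adjusted p = 0.138). TREX1, at 21.8, 42.0 and 29.2 CPM, had 0.97 ± 0.38 (edgeR adjusted p = 0.166). Presorted positive Bottom 5 cells had 0 of 41 called, beside 0.0390% of all genes, and a median of -0.03. TREX1 had its highest mean of the 10 groups there, 31.5 ± 5.19 CPM (SD, n = 3), and its lowest in Top 10 positive cells, 13.5 ± 3.99 CPM. Bottom 5 negative cells had 0 of 41 called, beside 0.858% of all genes, with a median of 0.07.

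Top 5 positive cells, which had stayed above the filter for 5 rounds, were the group farthest from its parental control in these genes. EdgeR called 0 of 41, beside 0.163% of all genes, with 6 at an unadjusted p below 0.05 (17.4% of all genes were). The median log2 fold change was -0.37 with 35 of 41 below 0, and 15 genes lay wholly below the Parental positive libraries, as did 9.61% of all genes. PMS2 was at 4.09, 18.4 and 8.40 CPM against 20.3, 21.9 and 24.6 CPM in Parental positive cells. Its log2 fold change was -1.10 ± 0.47, with an edgeR adjusted p of 0.251. TP53BP1, the mediator that steers breaks to end joining, was at 30.8, 71.0 and 36.0 CPM against 77.4, 80.1 and 72.3 CPM. Its log2 fold change was -0.74 ± 0.32, with an edgeR adjusted p of 0.256. In both genes the library near the parental values was replicate 2, the only one of the 3 that did not stand apart. With replicate 2 left out both passed as lower (edgeR adjusted p = 0.0384 for each), when 1200 of 15612 genes (7.69%) were called. With the other 2 left out PMS2 had a log2 difference of -0.28 (edgeR adjusted p = 1).

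In the 6 libraries that stand apart the levels of repair genes correlated with transcript length, which the plot of level against exon length shows. Among the longest, PRKDC, with 13509 exon bases, averaged -0.999 on the log2 scale relative to its mean over 30 libraries, TP53BP1 (10629 bases) -0.76, and ATM (18299 bases) -0.57. RPA3, with 2142 bases, averaged 1.12. Length did not order all of them. RAD50 (8306 bases) averaged 0.00 and MSH6 (7812 bases) -0.05, whereas PMS2 (2855 bases) averaged -1.21 and XRCC2, a recombination gene (3067 bases), -0.96. Within single libraries the Spearman correlation of level with length over the 41 genes was -0.616 to -0.262 in the 6 and -0.0315 to 0.596 in the 24.

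**Figure D4:**
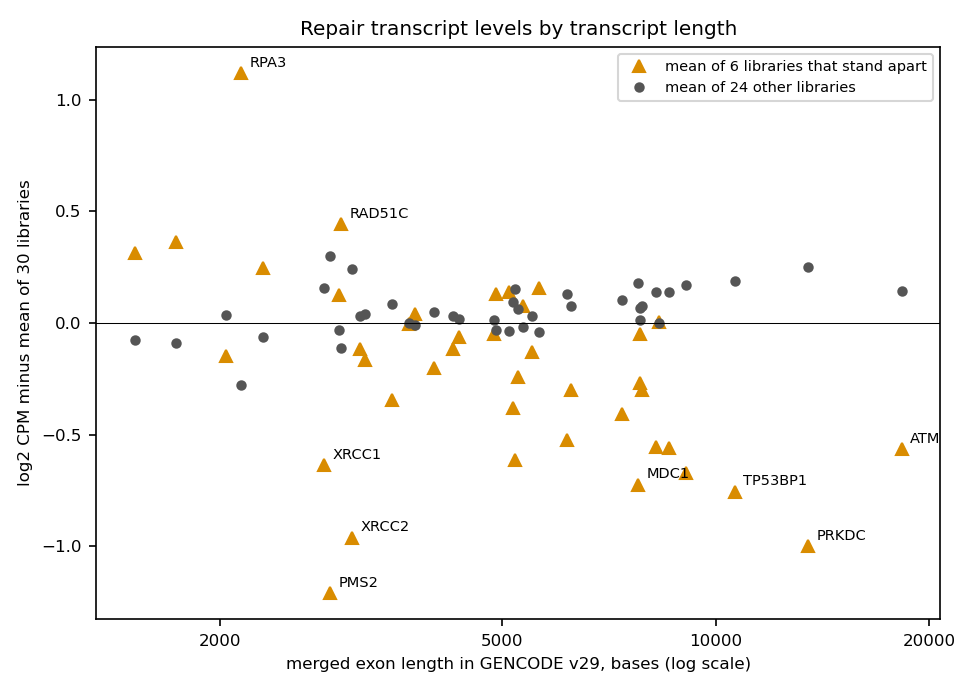
Mean log2 CPM of each of the 41 genes relative to its mean over 30 libraries (vertical axis) against merged exon length in bases (horizontal axis, log scale), for the 6 libraries that stand apart (orange triangles) and the other 24 (grey points). Triangles run from 1.12 for RPA3 to -1.21 for PMS2. Each gene is centred on all 30 libraries, so by construction the grey points mirror the triangles on a smaller scale (-0.28 for RPA3 and 0.30 for PMS2).

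Most of the repair genes varied with the S-phase genes across libraries. After group means were removed, the level of 31 of the 41 genes (75.6%) correlated with the mean of the 42 S-phase genes at Pearson's r above 0.5 over the 30 libraries, as did 23.1% of all 15381 genes. The median r was 0.74 for the 41 genes and -0.04 for all genes, and no member of the S-phase list was one of the 41. These correlations are descriptions, since the libraries share groups and the 6 that stand apart. Among all genes 3548 had r above 0.5 and 4024 had r below -0.5. Top 10 negative replicate 2 and Parental negative replicate 1 had the lowest S-phase means. They also had the lowest scores on the first principal component, -81.4 and -77.9, which held 32.4% of the variance. How far the S-phase mean stands for that wider variation between libraries was not tested. In bulk libraries a smaller share of cells in S phase and less of a transcript per cell cannot be told apart. Among the 820 pairs of repair genes the median r was 0.55, with 53.4% above 0.5 and 73 pairs below -0.5.

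The genes that followed the mean of the S-phase genes most closely came from several pathways. XRCC6 had r = 0.97, ATRIP 0.97, MSH6 0.97, XRCC5 0.97, PARP1 0.95, RPA1 0.95 and BLM, the helicase that dissolves recombination intermediates, 0.95. BRCA1 had r = 0.84, and 0.94 over the 24 libraries that do not stand apart. In Parental negative cells XRCC6 was at 276, 481 and 538 CPM and BRCA1 at 34.0, 70.9 and 91.4 CPM, where the S-phase mean was -1.12, 0.07 and 0.29 relative to all libraries. In Top 10 negative cells XRCC6 was at 413, 292 and 512 CPM, with S-phase means of -0.34, -1.22 and 0.37. Within each of these groups XRCC6 was lowest in the library with the lowest S-phase mean and highest in the one with the highest.

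A few repair genes ran against this pattern, 3 of the 41 with r below -0.5, beside 4024 of all 15381 genes. RAD50, the structural ATPase of the MRE11 complex, had r = -0.86, ATM -0.74 and WRN, a RecQ helicase, -0.53. In Parental negative cells RAD50 was at 90.0, 60.7 and 65.5 CPM and ATM at 83.25, 59.6 and 53.4 CPM, so both were highest in the library where XRCC6 was lowest. NBN, which binds RAD50 in the MRE11 complex, had r = 0.82 and the kinase ATR 0.59. PMS2, LIG3 (the ligase of single-strand break repair) and PRKDC were near 0, at -0.02, 0.20 and 0.22. For PRKDC the 24 libraries that do not stand apart gave 0.47. XRCC1, the scaffold that holds LIG3, had r = -0.40 over all libraries and -0.69 over those 24.

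**Figure D5:**
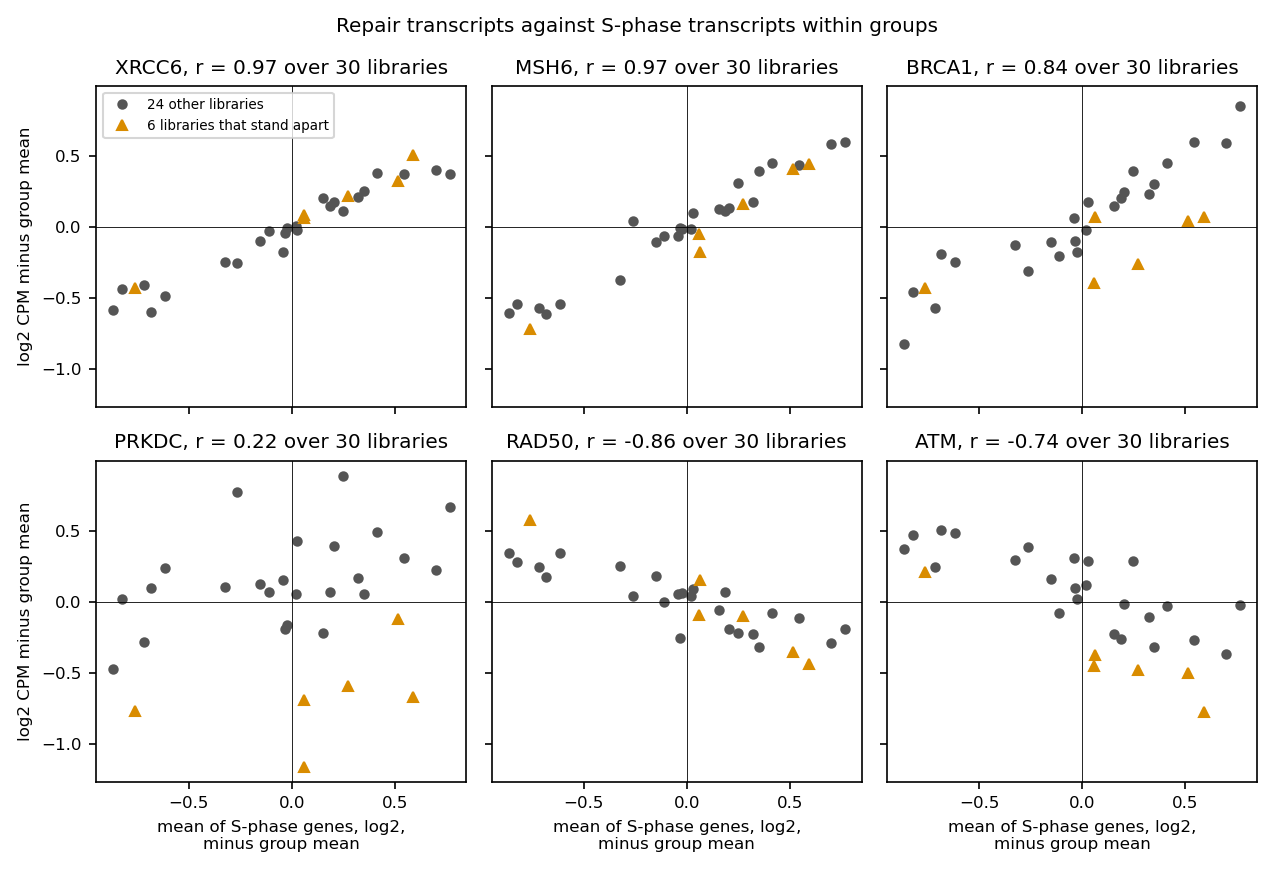
Log2 CPM of 6 repair genes minus the mean of their group (vertical axis) against the mean of 42 S-phase genes minus the same group's mean (horizontal axis, log2), each point 1 of 30 libraries and orange triangles the 6 that stand apart. XRCC6, MSH6 and BRCA1 follow the S-phase mean (r = 0.97, 0.97 and 0.84), and RAD50 and ATM run against it (r = -0.86 and -0.74). PRKDC lies below its group mean in the 6 orange libraries, from -1.16 in Presorted negative Bottom 4 replicate 2 to -0.12 in Top 5 positive replicate 3.

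E2F factors drive the transcription of S-phase genes, and the promoters of the repair genes were read for their letters. RefSeq promoter sequences (GRCh38.p14, 250 bases before to 50 after the gene start) matched 35 of the 41 genes, and XRCC5, PRKDC, FANCI, NBN, RPA3 and WRN had none in the table. The E2F letters searched on both strands were TTTGGCGC, TTTCGCGC, TTTCCCGC and TTTGCCGC. They stood in 7 of 35 promoters, those of FANCA, FANCD2, MSH6, PMS2, TOPBP1, XRCC2 and XRCC6, and in 3.31% of all 35116 promoters in the table. That table was not limited to the genes tested here, whereas all 41 repair genes were expressed. The shares, here and below, therefore come from unlike sets and do not mark repair genes out from other expressed genes. Of the 28 matched genes with r above 0.5 for the S-phase mean 6 held them, and of the other 7 genes 1 did, PMS2. The cell cycle homology region, a late cell cycle element searched on both strands as TTTGAA and TTCGAA (the latter reads alike on both), stood in 5 of 35 (14.3%) and in 16.4% of all. The letters CCAAT, on either strand, were in 54.3% against 34.6% of all. A letter match is not a bound site, and a window without one says nothing of the factor.

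The start of 6 genes is printed as 150 bases, 120 before it and 30 from it, 5′ to 3′ on the gene's strand, with E2F letters in capitals, to set genes with one of the E2F motifs beside one that varied otherwise and one without. MSH6 (chr2:47783025-47783174, plus strand), FANCD2 (chr3:10026317-10026466, plus strand), TOPBP1, an activator of ATR (chr3:133661912-133662061, minus strand), and XRCC2 (chr7:152676112-152676261, minus strand) had r of 0.97, 0.82, 0.69 and 0.58 with the S-phase mean. PMS2 (chr7:6009077-6009226, minus strand) holds another of the E2F motifs, TTTGCCGC, with an r of -0.02. In ATM (chr11:108222947-108223096, plus strand), with an r of -0.74, the capitals mark the cell cycle homology letters TTTGAA, and no E2F letters were found.
MSH6: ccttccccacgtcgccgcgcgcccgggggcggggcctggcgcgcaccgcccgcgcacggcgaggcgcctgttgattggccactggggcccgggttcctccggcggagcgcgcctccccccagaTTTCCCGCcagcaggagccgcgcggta
FANCD2: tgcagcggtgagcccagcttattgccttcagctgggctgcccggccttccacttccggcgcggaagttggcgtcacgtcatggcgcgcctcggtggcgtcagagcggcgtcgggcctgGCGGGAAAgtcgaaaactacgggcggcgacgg
TOPBP1: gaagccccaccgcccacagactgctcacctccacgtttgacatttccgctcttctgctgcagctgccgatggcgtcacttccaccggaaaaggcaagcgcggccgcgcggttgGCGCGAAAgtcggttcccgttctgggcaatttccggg
XRCC2: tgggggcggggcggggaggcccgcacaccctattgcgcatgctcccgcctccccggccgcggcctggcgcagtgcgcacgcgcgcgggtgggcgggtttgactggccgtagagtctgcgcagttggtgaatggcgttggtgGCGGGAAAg
PMS2: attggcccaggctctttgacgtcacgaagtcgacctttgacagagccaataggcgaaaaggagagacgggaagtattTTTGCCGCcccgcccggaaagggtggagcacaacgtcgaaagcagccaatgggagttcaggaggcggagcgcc
ATM: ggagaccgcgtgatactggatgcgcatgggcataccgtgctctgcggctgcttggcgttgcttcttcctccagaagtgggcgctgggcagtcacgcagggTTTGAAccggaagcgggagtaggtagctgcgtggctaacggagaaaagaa
In FANCD2, TOPBP1 and XRCC2 the letters lie on the opposite strand and are therefore printed as their reverse complement.

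A further 119 repair genes in 8 lists (recombination, end joining, Fanconi, nucleotide excision, base excision and direct repair, mismatch, translesion synthesis and checkpoint genes) were tested, of which 11 are also S-phase genes. In the 3 comparisons of crossed with uncrossed cells 0 of 119 passed. For both sorts averaged 87 of 119 lay above 0, with the highest medians in recombination (0.26 on the log2 scale, 22 of 23 above 0) and mismatch repair (0.21, 6 of 6 above 0). Nucleotide excision repair had a median of 0.01, with 9 of 16 above 0. Over all 18 tests 2 of the 119 passed in any direction, both higher in Presorted negative Bottom 4 than in Parental negative cells. These were SFR1, from the recombination list (2.19-fold, edgeR adjusted p = 0.0418), and RMI2, a subunit of the BLM complex (2.25-fold, adjusted p = 0.0464). SFR1 was at 8.32, 18.9 and 9.77 CPM against 5.38, 5.77 and 5.69 CPM in parental cells, and RMI2 at 37.0, 78.0 and 36.1 CPM against 20.4, 23.8 and 22.9 CPM. The second library of each, the highest, stands apart, and without such libraries the genes were at 1.60-fold and 1.62-fold and did not pass (edgeR adjusted p = 0.0693 and 0.0988). In the same comparison 4 of 53 G2/M genes rose, beside 2.00% of all genes, among them NEK2, CKAP2L and KIF20B, of which CKAP2L alone passed without such libraries (1.82-fold, edgeR adjusted p = 0.0464, against 0.0784 for NEK2 and 0.175 for KIF20B). Of 3 fibroblast markers DCN rose there, from 0.526, 0.741 and 0.507 to 1.67, 2.52 and 1.39 CPM (edgeR adjusted p = 0.0495, and 0.151 without the libraries that stand apart). The summed level of the 3 was 7.71 to 9.89 CPM in parental and 8.84 to 12.7 CPM in presorted cells. Its part in the values of repair genes was not tested. Of the melanocyte lineage list MITF was lower in cells that had crossed 10 times than in parental cells. Over both sorts it was at 0.62-fold (edgeR adjusted p = 0.0168, and 0.0326 without the libraries that stand apart), beside 1.27% of all genes called. In the positive sort it was at 0.49-fold (edgeR adjusted p = 0.0243, and 0.1 without those libraries).

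Targets of p53, which many damage signals activate, passed in 2 cases among 24 tested when crossed and uncrossed cells were compared over both sorts, beside 3.97% of all genes. These were the polo-like kinases PLK2 and PLK3. PLK2 was at 22.2, 33.0 and 47.1 CPM in Top 10 negative and 43.8, 43.7 and 73.5 CPM in Top 10 positive cells. It was at 87.8, 100.2 and 112.5 CPM in Bottom 10 negative and 114, 62.5 and 139 CPM in Bottom 10 positive cells. Negative sort groups did not overlap, whereas positive sort groups did. In Parental negative cells PLK2 was at 55.9, 98.8 and 139 CPM and in Parental positive cells at 149, 174 and 80.1 CPM, so the uncrossed cells were the low ones. PLK2 was higher in crossed than in uncrossed cells, 2.40-fold (edgeR adjusted p = 0.00629), and 2.94-fold in the negative sort (adjusted p = 0.0424). It was lower in cells that had failed to cross 10 times than in parental cells, by 1.42 ± 0.27 on the log2 scale (edgeR adjusted p = 0.00629, and 0.0289 without the libraries that stand apart). PLK3 was 1.49-fold higher in crossed cells (edgeR adjusted p = 0.0439). Without the libraries that stand apart PLK2 was at 2.01-fold and PLK3 at 1.39-fold, and neither passed (edgeR adjusted p = 0.0674 and 0.167). With the replicate block both passed. The other 22 targets tested did not pass in any of the 3 crossing comparisons. Among 9 tested genes of cytosolic DNA sensing, the pathway that TREX1 restrains, 0 passed in the 18 tests, with a median log2 fold change of 0.02 between crossed and uncrossed cells.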

How the data were processed

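PolyA RNA of 30 A375 libraries in 10 groups of 3 was analysed. The authors deposited 1 table of raw counts of reads per gene symbol for each library. The submitters' processing notes name STAR, HTSeq, DESeq and the build hg19, and their versions, the strand setting and the gene annotation are not given in the sources used here. Totals of unassigned reads were kept out of library sizes, and reads in no gene were 11.4 to 18.2% of each library's reads. Genes were filtered with edgeR's filterByExpr (minimum count 10, minimum total 15), and TMM scaling went before the model, edgeR 4.0.16's quasi-likelihood test in R 4.3.3 (all 10 groups in 1 fit, no covariate). A gene was called at a Benjamini-Hochberg adjusted p of 0.05 over all 15381 genes, in 17 comparisons and 1 interaction. Each SE was taken as |log2 fold change| over √F, and log2 levels had a prior count of 2 added. With 3 against 3 libraries an exact permutation test cannot go below 0.1, so single genes were tested through the model. The fit was also run on simulated data, the outcome of which is not given here. Intervals are 95%.

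The 41 genes and all gene lists were chosen with earlier results of these data known. Values in each library were given, by rule, for genes called in any test and for the 3 with the smallest p in the crossing, averaged parental and averaged sort comparisons, and for up to 3 called genes of another list. RAD54L, MSH6, XRCC3, RPA3, PMS2, TP53BP1, XRCC6, BRCA1, RAD50 and the genes named for their correlation with S phase were chosen after their values were seen. The alternatives were DESeq2 1.42.0, RLE scaling, no filter, only the compared groups, a replicate block and each library left out in turn. Chosen after seeing the data were fits without the 6 libraries with a second principal component score above 30, and the paired fit with libraries left out. Replicate numbers were taken to pair 2 groups where deviations from the group means correlated above 0.1 for each of the 3 numbers. This held between Top 10 and Bottom 10 cells within each sort, and not between Top 10 negative and Bottom 10 positive cells, where replicate 1 gave -0.122. The labels state no pairing. It also held between Parental negative and Bottom 5 negative cells. Exon lengths and overlaps came from GENCODE v29 for 97.1% of tested genes, and no coordinate of the counting build is given.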

Additional observations from a re-analysis of the deposited data

How the results depend on the processing

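Of 283 counts of called repair genes under alternative settings, 273 were 0 like the main counts. Of the 283 medians 23 had the other sign, in 7 of 18 comparisons, among them crossed against uncrossed positive cells (-0.02, up to 0.158) and 10 crossings against parental cells over both sorts (0.01, down to -0.06). DESeq2, RLE scaling, no filter on low counts, only the compared groups and a replicate block over all 10 groups gave 0 in each comparison. With the replicate block in the 4 groups of 10 rounds, whose numbers pair within each sort, the crossing counts were 6 over both sorts, 3 in negative and 1 in positive cells. Of all genes 14.9%, 9.29% and 7.75% passed there. Without replicate 1, 2 or 3 in that paired fit the count was 0 to 14 over both sorts, beside 3.44 to 16.6% of all genes. It was 0 to 16 in the negative sort, beside 0.796 to 13.1%, and 0 in the positive sort, beside 0.631 to 5.71%. In the paired fit without the libraries that stand apart it was 11, 10 and 2, beside 26.5%, 18.2% and 16.4% of all genes. The block changed no other call, and for Bottom 5 negative against Parental negative cells it gave 0. Leaving out 1 of the 30 libraries gave 0 in 143 of 144 counts. Without Top 5 positive replicate 2 it gave 2, beside 7.69% of all genes, so the range for that comparison was 0 to 2. The cause of these shifts was not tested. Counts over all genes varied more: DESeq2 called 962 where edgeR called 611 for both sorts, 394 against 205 for negative and 285 against 145 for positive cells. Among the other comparisons it called 600 against 275 for 10 failed rounds against parental cells, 163 against 56 between the sorts, 724 against 308 for presorted negative cells and 322 against 132 for Bottom 5 negative cells. The paired fit called 2177, 1355 and 1130 for both sorts, negative and positive cells. Leaving out 1 library gave 396 to 594, 91 to 157 and 53 to 113. With 3 libraries a group, differences under about 2-fold in 1 sort were not resolved for many genes.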
